A study of Rattus norvegicus with 6 samples.

Results

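The genes described here encode the proteins of the mitochondrial ribosome. They were taken from the authors' annotated table of peaks in PC12 cells that express α1ACT, as every gene whose symbol begins with Mrpl or Mrps followed by a number. The rule found 48 of the 14390 genes in that table, 29 named for the large subunit and 19 for the small subunit. These 48 genes hold 316 of the 159452 annotated peaks. The rule used names only, so position and signal of the peaks were not part of it.

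PC12 is a rat adrenal pheochromocytoma line, used widely as a model of chromaffin cells and sympathetic neurons. The study made stable PC12 lines carrying either the pCDNA3 vector alone, called EV, or human α1ACT, called Q11, and sequenced chromatin that was precipitated from them after 10 min in 1% formaldehyde. Each line gave 1 library with the M2 anti-FLAG antibody, 1 with an antibody named 1804 and 1 input, all at passages 18 to 20. What 1804 binds is not given in the labels, nor whether a line is 1 clone, and the design text names tissues at day 3 where the sample labels name PC12. With 1 library per group no difference has a replicate check, and the sequencing depth behind the peaks is unknown. Of the chromaffin markers fixed for a check of the cell type, 4 of the 6 in the table had a peak within 1000 bp of their start, led by Phox2a with a signal of 9.74 and Chga with 9.26. A peak list does not show which of them the cells express.

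The mitochondrial ribosome translates the few proteins that are encoded by mitochondrial DNA, which are core parts of the respiratory chain and of ATP synthase. Its RNAs come from mitochondrial DNA, whereas all of its proteins are encoded in the nucleus, made on cytosolic ribosomes and imported. Promoters of nuclear genes for mitochondrial proteins are known for sites of NRF1, of the ETS family factor GABP (NRF2) and of YY1. Some symbols in the family no longer match the structure: the products of Mrps18a and Mrps30 lie in the large subunit, and the reference gene table now gives Mrps36 as Kgd4, a component of the 2-oxoglutarate dehydrogenase complex. The counts below go by symbol.

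Promoter sequence came from the RefSeq promoter table on build GRCr8, which held 38 promoters of 37 of the 48 genes. Peaks are on rn5, so sequence and peak positions cannot be laid over each other. The following 200 bases before the start belong to the 5 genes with the highest promoter signal, to Mrpl17, which had a low peak, and to Mrpl32 and Mrpl53, which had none. They were picked after their values were seen, to set promoters with and without a peak side by side. Each reads 5′ to 3′ on the gene's strand and ends at the base before the start. Capitals mark matches on either strand to the letters CCGGAAG (ETS), GCATGCGC (NRF1 core), AANATGGC (YY1), GGGCGG (SP1) and CCAAT (NF-Y). The windows lie at chr10:101342442-101342641, plus strand; chr10:106256546-106256745, plus strand; chr10:73496038-73496237, plus strand; and chr10:42845710-42845909, plus strand. Those of Mrpl49, Mrpl17, Mrpl32 and Mrpl53 lie at chr1:212779328-212779527, minus strand, at chr1:169575700-169575899, minus strand, at chr17:55260451-55260650, plus strand, and at chr4:117172843-117173042, plus strand. Mrps5, Mrps7 and Mrps23 stand on the minus strand in rn5 and on the plus strand in GRCr8.
Mrps7: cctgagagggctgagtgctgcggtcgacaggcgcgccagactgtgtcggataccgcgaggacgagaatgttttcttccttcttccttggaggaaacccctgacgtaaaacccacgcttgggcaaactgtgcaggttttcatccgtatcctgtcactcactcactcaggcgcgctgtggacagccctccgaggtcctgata
Mrpl12: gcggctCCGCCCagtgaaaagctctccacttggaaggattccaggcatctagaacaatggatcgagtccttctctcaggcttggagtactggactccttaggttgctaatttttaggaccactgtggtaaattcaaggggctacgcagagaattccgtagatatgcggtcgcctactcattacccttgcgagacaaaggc
Mrps23: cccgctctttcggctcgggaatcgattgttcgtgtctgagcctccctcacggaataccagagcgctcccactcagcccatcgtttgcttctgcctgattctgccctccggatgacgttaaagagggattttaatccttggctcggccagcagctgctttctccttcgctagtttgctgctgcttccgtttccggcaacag
Mrpl22: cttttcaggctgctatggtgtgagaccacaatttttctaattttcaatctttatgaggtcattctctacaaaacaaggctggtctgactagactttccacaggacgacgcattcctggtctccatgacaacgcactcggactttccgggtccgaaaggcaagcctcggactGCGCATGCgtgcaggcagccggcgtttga
Mrpl49: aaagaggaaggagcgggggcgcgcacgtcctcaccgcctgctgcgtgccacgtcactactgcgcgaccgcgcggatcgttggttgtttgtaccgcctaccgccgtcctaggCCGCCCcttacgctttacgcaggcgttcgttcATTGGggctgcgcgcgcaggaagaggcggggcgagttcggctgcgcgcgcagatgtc
Mrpl17: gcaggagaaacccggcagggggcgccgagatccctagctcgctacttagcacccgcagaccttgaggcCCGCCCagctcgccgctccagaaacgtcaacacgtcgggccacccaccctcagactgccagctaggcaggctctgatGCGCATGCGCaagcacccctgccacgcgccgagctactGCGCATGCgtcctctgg
Mrpl32: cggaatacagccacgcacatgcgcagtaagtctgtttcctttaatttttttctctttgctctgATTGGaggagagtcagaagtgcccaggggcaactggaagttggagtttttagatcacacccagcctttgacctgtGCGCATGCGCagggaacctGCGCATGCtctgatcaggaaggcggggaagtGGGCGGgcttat
Mrpl53: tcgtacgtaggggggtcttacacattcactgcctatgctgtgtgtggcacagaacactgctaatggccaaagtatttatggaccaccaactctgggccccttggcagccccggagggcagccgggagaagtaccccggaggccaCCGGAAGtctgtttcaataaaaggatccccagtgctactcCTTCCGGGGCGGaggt

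None of these motifs was found in the windows of Mrps7 and Mrps23, whose peaks were among the highest. Mrpl22 had 1 NRF1 core match, at 29 to 22 bases before the start, and Mrpl12 had a lone SP1 match at 194 to 189 bases before it. Mrpl17 and Mrpl32 each held 3 NRF1 core matches, of which 1 pair overlaps because the core and its reverse complement share 6 letters. The Mrpl17 promoter carried a peak with a signal of 2.89 and no peak lay within 1000 bp of the Mrpl32 start. Mrpl53 held 2 ETS matches and an SP1 match that overlaps the second by 1 base, and it too had no promoter peak.

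A promoter peak, meaning a peak within 1000 bp of the transcription start in the authors' annotation, was listed for 25 of the 48 genes. This is 52.1% (exact 95% interval 37.2% to 66.7%), beside 43.2% of all genes in the table, which lies inside the interval. The share was 12 of 19 for the Mrps genes (63.2%, 38.4% to 83.7%) and 13 of 29 for the Mrpl genes (44.8%, 26.4% to 64.3%), and the intervals overlap. Such exact Clopper-Pearson intervals cover counting error only. Each gene in the table has at least 1 assigned peak, so the shares do not run over all genes of the genome.

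Most genes with a promoter peak had a single one. One peak was listed for 20 genes, 2 for Mrpl36, Mrps24 and Mrps9, and 3 for Mrpl12 and Mrps7. At least 2 were thus found at 5 of 48 genes (10.4%), against 15.1% of all genes, and the mean per gene with a promoter peak was 1.28 against 1.48 over all genes. The 2 peaks of Mrpl36 lie at different listed starts of that gene, not at a single promoter. All genes were counted by symbol in the same way.

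Signal is the authors' own value for each peak, whose scaling is not stated, and serves here to rank peaks within the α1ACT 1804 list. Taking the highest promoter peak of each gene, the median was 4.09 over the 25 genes and 4.92 over all 6219 genes with a promoter peak. The values ran from 2.52 to 14.8, with a median of 4.26 for the 13 Mrpl genes and of 3.95 for the 12 Mrps genes. A promoter peak in the upper 10% of all annotated peaks, at a signal of 5.28 or more, was found at 8 of 48 genes (16.7%, 7.48% to 30.2%), against 19.7% of all genes. Neither value was above that of all genes. Over the 32 promoter peaks the −log10 q-value of the authors ran from 1.52 to 3.89, the latter being the highest in the list.

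**Figure D1:**
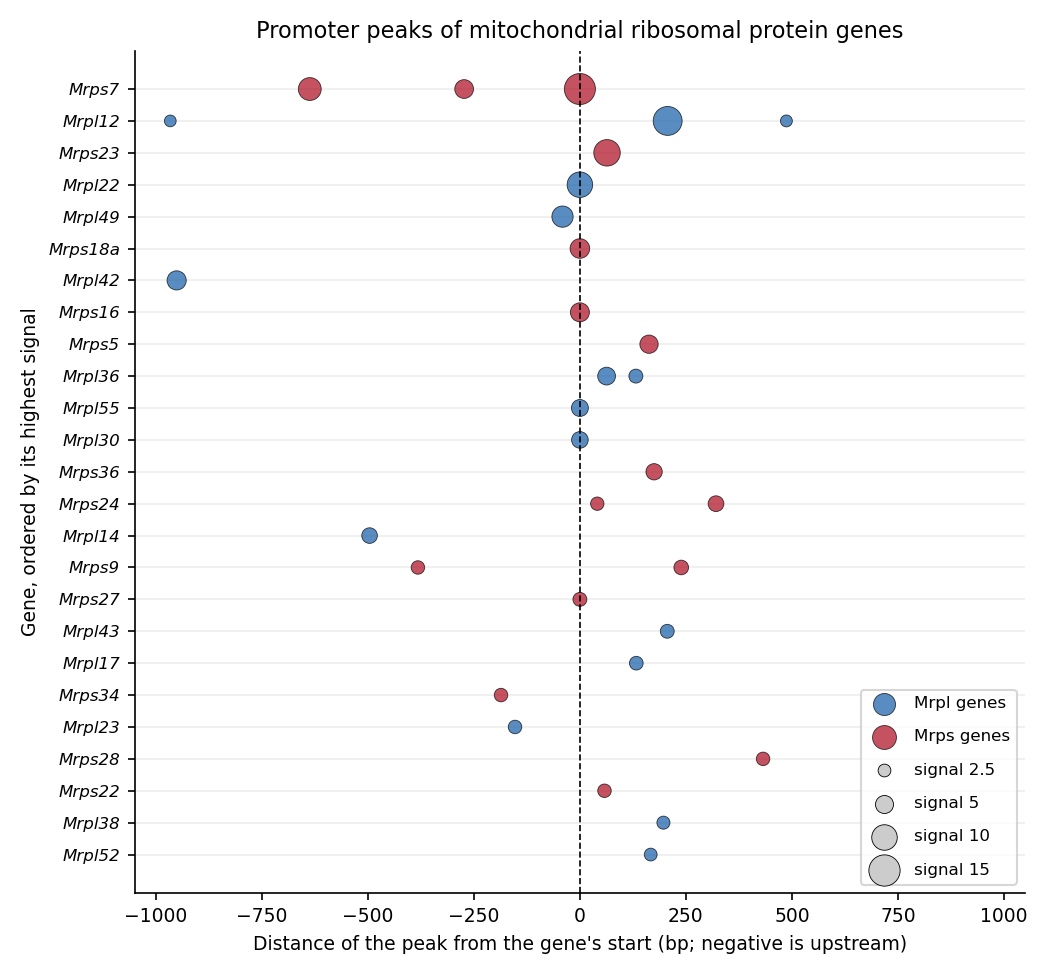
The 32 promoter peaks of the 25 mitochondrial ribosomal protein genes that have one, by distance from the start of the gene (x axis, bp) and by gene (y axis, highest signal at the top). Circle area is proportional to the signal; most circles lie on the start or within 250 bp downstream, and 4 genes reach 10.0 or more.

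Among the small-subunit genes, Mrps7 stood highest. It encodes a counterpart of a bacterial protein in the head of the small subunit. Its peak at chr10:104125349-104125404 covered the start and had a signal of 14.8, above the highest promoter signal of 98.6% of genes with a promoter peak. Further peaks lay 273 bp upstream (5.40) and 637 bp upstream (8.02). Another, with a signal of 11.3, lay 6633 bp upstream in intron 1 of 15 of Gga3, so that Mrps7 had high peaks both at and away from its start. In rn5 Gga3, an adaptor protein of vesicle traffic, starts 771 bp inside Mrps7 on the other strand, and these 4 peaks lie within Gga3. Which of the genes they belong to cannot be told apart.

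Mrps23, a subunit without a bacterial counterpart, had its peak 64 bp downstream of the start at chr10:74577257-74577312 with a signal of 10.8 (above 94.4%). Mrps16 is a bacterial-type subunit in which human mutations cause a respiratory chain deficiency. Its peak covered the start at chr15:8452736-8452791 and reached 5.56. For Mrps5, also of bacterial type, the value was 5.14 at 163 bp downstream. These 3 genes each had a single promoter peak.

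Lower values were found at 7 other Mrps genes. Mrps36 reached 4.09 at 175 bp downstream. Mrps24 had peaks of 3.81 and 2.75 at 321 and 41 bp downstream, and Mrps9 had 3.30 at 239 bp downstream and 2.79 at 382 bp upstream. Mrps27, a pentatricopeptide repeat protein, had 2.98 over its start, Mrps34 had 2.82, and Mrps28 had 2.80 at 432 bp downstream. Mrps22, which like Mrps16 is mutated in a human respiratory chain deficiency, had 2.80 at 58 bp downstream. All of these lie below the median over all genes.

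In the large subunit, Mrpl12 had the highest value. Its protein forms the flexible stalk that recruits translation factors and is also known to bind the mitochondrial RNA polymerase. The main peak lay 207 bp downstream of the start at chr10:109251452-109251507 with a signal of 12.9 (above 97.1% of genes), and weak peaks of 2.12 and 2.18 lay 966 bp upstream and 487 bp downstream. Mrpl22, whose bacterial counterpart lines the exit tunnel for the new protein, had a peak of 10.0 over its start at chr10:43395519-43395574 (above 92.4%). These and the top Mrps genes make up the 4 values of 10.0 or more.

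Mrpl49 had a peak of 6.95 at 41 bp upstream, at chr1:228355584-228355639. Its start is 205 bp from that of Fau, which encodes a cytosolic ribosomal protein fused to a ubiquitin-like protein, and the 2 genes point away from each other. A higher peak of 10.5 at chr1:228355787-228355842 was assigned to Fau and lies 244 bp from the Mrpl49 start. Both peaks thus fall at one shared promoter region, and which gene they belong to cannot be told apart.

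Mrps18a, whose product sits in the large subunit, had 5.91 over its start at chr9:16149999-16150054. Mrpl42 had 5.66 at chr7:36662887-36662942, 951 bp upstream, the farthest of any highest promoter peak in the family. Mrpl36, the counterpart of a small bacterial protein, had 4.87 at 63 bp downstream, Mrpl55 had 4.44 over its start and Mrpl30 had 4.26 over its start. With these, the 12 highest genes are 7 Mrpl and 5 Mrps genes. The lowest values were 2.52 at Mrpl52 and 2.62 at Mrpl38, and the other 4 Mrpl genes lay between 2.81 at Mrpl23 and 3.74 at Mrpl14.

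The 1000 bp limit fell in a sparse range. The genes whose nearest peak lay just inside it were Mrpl42 at 951 bp, Mrpl14 at 496 bp and Mrps28 at 432 bp. Just outside it lay Mrpl54 at 1181 bp with a signal of 4.73, Mrps18b at 2050 bp with 4.49 and Mrpl35 at 3122 bp with 2.45.

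Positions around the start are given beside those of all promoter peaks, with no test of the difference. A peak covered the start in 7 of 32 cases (21.9%), against 7.84% of all 9175 promoter peaks, and 13 of 32 lay 1 to 250 bp downstream (40.6% against 28.4%). Farther downstream, from there to 1000 bp, lay 3 (9.38% against 30.4%). Upstream, 3 lay within 250 bp and 6 beyond. The 7 peaks over a start had a median signal of 5.56 and the 13 just downstream one of 2.99, beside 4.56 and 4.78 for all peaks in those positions. Together 23 of 32 lay over or downstream of the start (71.9%, 53.3% to 86.3%), beside 66.6% of all promoter peaks. The authors' distances run to the far edge of the peak on plus-strand genes and to the near edge on minus-strand genes, a shift of 55 bp for peaks 56 bp wide, and with the near edge on both strands the share was 72.7%.

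Genes without a promoter peak numbered 23. They were Mrpl1, Mrpl2, Mrpl3, Mrpl4, Mrpl13, Mrpl15, Mrpl19, Mrpl21, Mrpl32, Mrpl35, Mrpl44, Mrpl45, Mrpl46, Mrpl48, Mrpl53 and Mrpl54, and Mrps2, Mrps10, Mrps14, Mrps18b, Mrps30, Mrps31 and Mrps33. Their nearest peak lay within 5000 bp for 10 and beyond 10000 bp for 6, with a median of 6099 bp, beside 9778 bp for all genes without a promoter peak. Mrpl44, a subunit with a ribonuclease III-like fold, had a single assigned peak, of 4.06 at 9220 bp. Median gene length was 5579 bp for the genes with and 6856 bp for those without a promoter peak, and 6434 bp for the family against 16899 bp for all genes. The part of gene length in these shares was not tested.

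**Figure D2:**
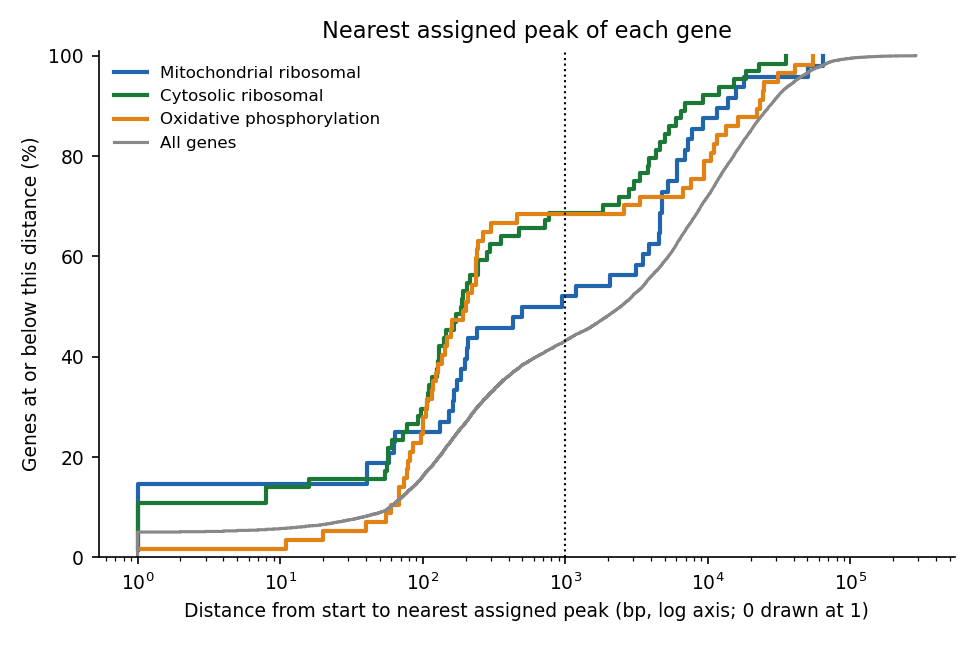
Cumulative share of genes (y axis, %) by distance from the start to the nearest assigned peak (x axis, bp, log scale), for mitochondrial ribosomal, cytosolic ribosomal and oxidative phosphorylation genes and all genes of the table. At the dotted line of 1000 bp the shares are 52.1%, 68.8%, 68.4% and 43.2%.

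Away from promoters, a gene's assigned peaks reflect how much chromatin has it as the nearest gene. Mrps30 had 93 assigned peaks over 711 kb, none nearer than 3516 bp, and the highest, of 10.5, lay 334 kb from its start. The highest assigned peak lay outside 1000 bp and in the upper 10% for 17 genes, of which 9 had a promoter peak and 8 did not. The share over all genes is not given here, so this count only describes the family. Among the 17, those with a promoter peak included Mrps36 (10.1 at 12.8 kb), Mrps28 (9.56 at 34.4 kb) and Mrpl42 (9.29 at 12.4 kb). The peak of Mrpl38, of 6.84, lay in exon 3 of 9, and that of Mrps9, of 6.52, in intron 4 of 10 of a transcript. Among genes without a promoter peak, Mrpl32 had 7.50 at 56.7 kb, Mrps2 had 7.24 at 103 kb, Mrpl3 had 7.15 at 228 kb and Mrpl2 had 7.09 at 15.2 kb. The values at Mrpl46 (6.31), Mrpl45 (5.87), Mrpl14 (5.73), Mrpl23 (5.71), Mrps24 (5.58), Mrps10 (5.57) and Mrps27 (5.28) were nearer to the limit of the upper 10%.

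The promoter peak was the highest assigned peak for 14 of the 25 genes. A single assigned peak was found at 15 genes, and it was a promoter peak for 7 of them. The same shares over all genes are not given here, so these counts only describe the family. Of the 316 peaks, 207 were intergenic (65.5% against 74.6% of all annotated peaks), 64 lay in introns (20.3% against 16.2%) and 32 were promoter peaks (10.1% against 5.75%).

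The share of genes with a promoter peak differed between chromosomes, but the counts are small and no difference was tested. On chromosome 10, 7 of the 8 genes had one (87.5%), the exception being Mrpl45, and the median of their highest signals was 10.0. All genes of that chromosome had a share of 54.4% and a median of 5.32. Mrps7, Mrpl12, Mrps23 and Mrpl22, the 4 highest genes of the family, are all on chromosome 10. On chromosome 4, none of the 4 genes had a promoter peak, where the share of all genes was 24.8%. Without chromosome 10 the family's share was 45.0% against 42.2% of genes, and its median signal 3.78 against 4.91. The copy number of these chromosomes in the cells was not analysed here, and its part in the signal was not tested.

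**Figure D3:**
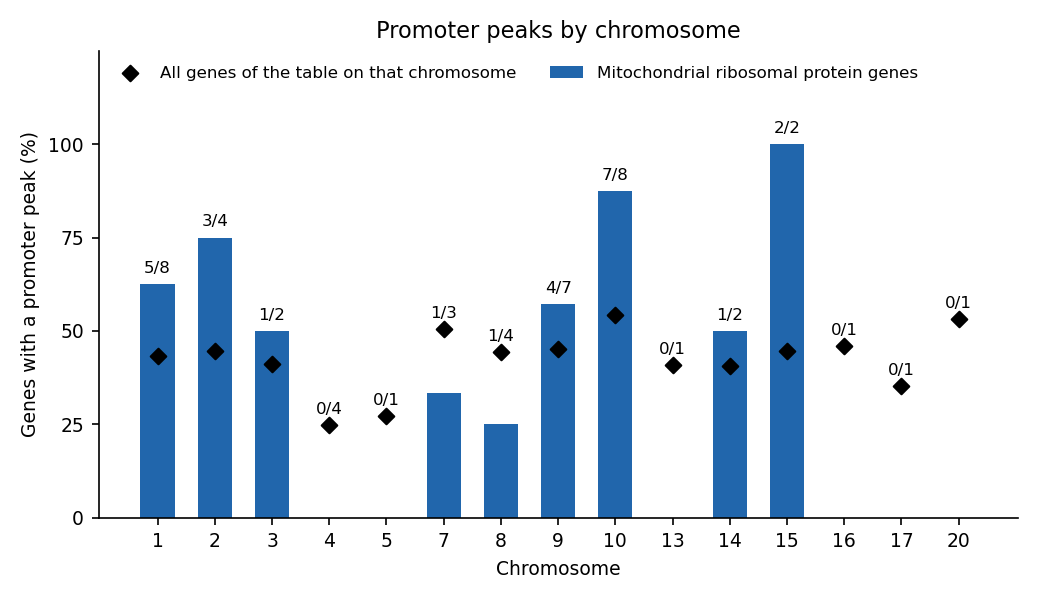
Share of genes with a promoter peak (y axis, %) for each chromosome that holds mitochondrial ribosomal protein genes; bars are those genes, with their counts above, and diamonds all genes of the table there. Chromosome 10 has 7 of 8, against 54.4% of all its genes, and chromosome 4 has 0 of 4, against 24.8%; Mrpl1 is listed on chromosomes 8 and 14 and is counted in both.

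Starts of another listed gene lay within 1000 bp for 7 of the 48 genes. No peak was found at Mrpl13, 28 bp from Mtbp, at Mrpl32, 210 bp from the proteasome gene Psma2, or at Mrps2, 258 bp from RGD1306233. The Mrps27 start, which a peak covers, lies 91 bp from the start of Ptcd2. A peak of 2.49 assigned to Ppp1r10 lies 564 bp from the start of Mrps18b. Counted by position whatever the assigned gene, 26 of 48 genes had a peak within 1000 bp (54.2%), against 44.4% of all genes.

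Other gene groups of the mitochondrion and of translation were set beside the family, with no test of the differences. Of the cytosolic ribosomal protein genes, 44 of 64 had a promoter peak (68.8%, 55.9% to 79.8%), with a median highest signal of 6.11, and 29 of 64 had one in the upper 10% (45.3%). Rpl31 had the highest value, 17.1. Genes of oxidative phosphorylation, whose complexes hold the products of mitochondrial ribosomes, had 39 of 57 (68.4%, 54.8% to 80.1%), a median of 4.81 and 15 of 57 in the upper 10% (26.3%). Here Ndufv2 (17.6) and Ndufv3 (16.7), both subunits of complex I, led. Beside both groups the mitochondrial ribosomal genes had the lower share, 52.1%, and the lower median, 4.09.

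**Figure D4:**
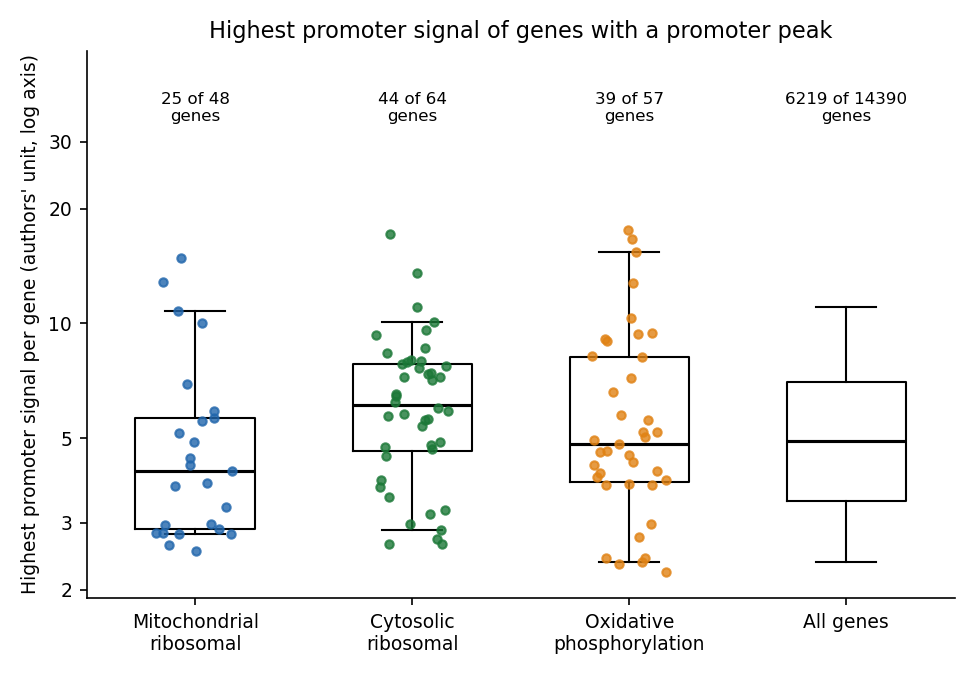
Highest promoter signal of each gene with a promoter peak (y axis, log scale, authors' unit) in 3 gene groups and over all genes; points are genes, boxes show the quartiles and median, and whiskers the 5th and 95th percentiles. The medians are 4.09, 6.11, 4.81 and 4.92 from left to right, and the ranges of the groups overlap.

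Subunits of the same ribosome that carry other symbols all had a promoter peak where they had a row, 5 of 5 (47.8% to 100%). The share of all genes was 43.2%. Chchd1 reached 8.62 and Ict1, the older symbol of the peptidyl-tRNA hydrolase Mrpl58, reached 6.78. Aurkaip1 had 2.80, the GTP-binding protein Dap3 had 2.62 and Gadd45gip1, which lies near the tunnel exit, had 2.39. With these the share was 30 of 53 (56.6%), beside 43.2% of all genes. Ptcd3 had no row in the table as used here.

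Genes that serve the same ribosome were counted by role, again with no test. A promoter peak was found at 5 of 9 translation factors (21.2% to 86.3%), led by Mtrf1l (5.99) and Mtfmt (5.03), the methionyl-tRNA formyltransferase. For mitoribosome assembly the count was 5 of 16 (11.0% to 58.7%), led by the RNA helicase Dhx30 (7.92) and the pseudouridine synthase Rpusd4 (6.90). Of the mitochondrial tRNA synthetases 8 of 9 had one (51.8% to 99.7%), with Nars2 at 9.61 and Aars2 at 8.0. For mitochondrial transcription and DNA maintenance it was 5 of 10 (18.7% to 81.3%), with the polymerase subunit Polg2 at 13.9 and the single-strand binding protein Ssbp1 at 8.65. Nuclear regulators of these genes had 6 of 9 (29.9% to 92.5%), with the GABP subunit Gabpb1 at 10.5 and Yy1 at 7.76. The lists are small and their intervals wide, and the 43.2% of all genes lies inside all but that of the tRNA synthetases.

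Searched over the full window of 250 bases before and 50 after the start, on both strands, the family's promoters held 3 motifs at a share several times that of all 33469 promoters. YY1 letters were in 15 of 38 (39.5% against 6.96%), ETS letters in 13 (34.2% against 8.75%) and the NRF1 core in 5 (13.2% against 2.47%). The SP1 letters were in 22 (57.9% against 33.1%), the E-box CACGTG in 5 (13.2% against 6.42%), CCAAT in 15 (39.5% against 37.5%), TATAAA in 6 (15.8% against 14.2%) and TTATAA in 1 (2.63% against 5.92%). TATAAA and TTATAA can overlap each other. With only the 250 bases before the start, the ETS share was 21.1% against 7.27% and the E-box share 7.89% against 5.59%. A match is a description of the letters and does not show a bound site.

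The motifs were set against the peaks next, over 20 promoters of genes with a promoter peak and 18 of genes without. ETS letters were in 6 of 20 and 7 of 18 (38.9%), beside 18.2% and 8.66% for all genes of the table with and without a promoter peak. The NRF1 core was in 2 (10.0%) and 3 (16.7%), beside 5.72% and 2.32%. YY1 letters were in 7 (35.0%) and 8 (44.4%), beside 10.1% and 6.45%. The SP1 letters were in 14 of 20 (70.0%) and 8 of 18 (44.4%), beside 69.8% and 37.6%. TATAAA was in 1 (5.00%) and 5 (27.8%), beside 6.27% and 15.7%. Median GC content was 57.0% with and 50.2% without a promoter peak, beside 53.7% over all 38 and 51.7% over all promoters, and its part in the SP1 difference was not tested.

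**Figure D5:**
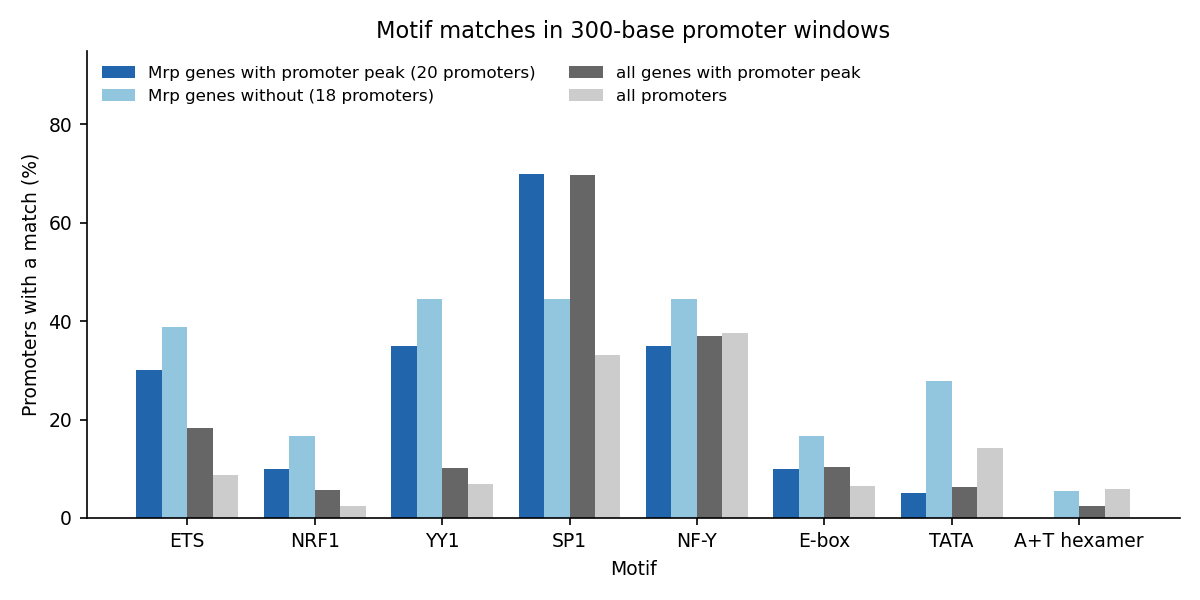
Share of RefSeq promoters with at least 1 match (y axis, %) for 8 motifs, in mitochondrial ribosomal protein genes (Mrp) with and without a promoter peak, in all genes of the table with one, and in all promoters. The Mrp bars for ETS, NRF1 and YY1 stand above both grey bars whether or not the gene has a peak; SP1 is at 70.0% and 44.4%. The A+T hexamer is TTATAA.

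The YY1 letters lay mostly near the start. They occurred 18 times in 15 genes, 14 times on the gene's own strand, and 13 matches began after the start, at bases 1 to 35 of the transcript. The 24-base stretches below hold the matches of the 7 genes with a promoter peak, with the match in capitals and 8 bases on each side. They read 5′ to 3′ on the strand of the match and lie on GRCr8 at chr10:101342640-101342663 (Mrps7), chr7:32028488-32028511 (Mrpl42), chr1:212779296-212779319 (Mrpl49), chr9:22367365-22367388 (Mrps18a), chr9:52605700-52605723 (Mrps9) and chr1:31795122-31795145 (Mrpl36, opposite strand). Those of Mrps27 lie at chr2:32474225-32474248 and, on the opposite strand, at chr2:32474074-32474097.
Mrps7: tagcggccAAGATGGCtgcccccg
Mrpl42: attgaagcAAGATGGCgagcgcgc
Mrpl49: gaggagcaAAGATGGCagcaaatg
Mrps18a: gtgttcccAAGATGGCggccctca
Mrps9: ttacggccAACATGGCcgccccct
Mrps27: tacgctccAAGATGGCggccccca
Mrps27: cccggaacAATATGGCtacggtat
Mrpl36: cagaaagaAAGATGGCgtagggtc

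The search fixed every capital letter but the third, which is G in most of them (AAGATGGC). The letters include ATG, so that on the gene's strand a match soon after the start can also be a translation start codon, and this was not tested. Before the start alone, YY1 letters were in 13.2% of the family's promoters and 4.23% of all promoters. The same letters were found in genes without a promoter peak, among them Mrpl46, Mrps10, Mrps14 and Mrps18b.

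None of the 316 peaks overlapped a peak of the other 3 lists by at least 1 bp. The authors' name for the annotated set is Q11 only. The absence of overlap with EV peaks may therefore follow from how that set was made. The same count over all annotated peaks is not given here, so the result is not particular to this family. The EV 1804 list held 272 peaks, the EV M2 list 244 and the α1ACT M2 list 81. The nearest EV peak lay 132 kb from the start of Mrps5, and the nearest α1ACT M2 peak 1027 kb from that of Mrpl12. The lowest signals in those lists were 14.0, 19.0 and 53.6, beside 2.00 in the α1ACT 1804 list. Since the scaling between lists is not stated and the lists end at such different values, a difference between the lines at these genes cannot be told apart from a difference in peak calling.

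The family was covered in part. Of 78 symbols written for it, 48 had a row and 30 did not, among them Mrps12, the counterpart of a bacterial protein of the decoding centre, and Mrps11, Mrps15, Mrps17, Mrps21, Mrps35, Mrpl10, Mrpl16, Mrpl27, Mrpl28 and Mrpl41. Mrpl58 is counted among the 30, since it stands in the table under its older symbol Ict1. The reference table has 78 coding genes with such a symbol. Matched by gene ID, which brings in Ict1 as Mrpl58 and leaves out Mrps36 as Kgd4, 25 of them had a promoter peak (32.1%), beside 26.4% for all coding genes.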

How the data were processed

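Chromatin of 6 libraries was sequenced. Used here were 4 deposited peak lists, 1 per antibody and line, and the annotated table, which gives the assigned gene of a peak and its distance to the transcription start in bp. Their peak signal values are in an unstated unit, and the −log10 q-value per peak is as deposited. The genome build was rn5, per the submitters' processing notes, which also list BWA 0.7.5a, FastQC 0.11.2, HOMER, ChIPseeker and DiffBind but not their roles. Settings of the peak calling: not given in the sources used here. Each peak of the annotated table was joined to the α1ACT 1804 list by chromosome and start, which matched all 159452 peaks. Shares were computed in Python 3.11.15 with pandas 2.3.3, numpy 2.4.6 and scipy 1.17.1, and figures with matplotlib 3.10.9. The scripts were tested on simulated data.

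The genes and lists were chosen with earlier results of these data known. Genes were named by a rule: the 12 with the highest promoter signal, the 2 lowest, 3 on each side of 1000 bp by nearest peak, those with a highest peak outside 1000 bp in the upper 10%, subunits with a known role, and the 2 highest of each related list, of which 1 gene is not reported here. Other genes were named after their values were seen. No test was run, since each group has 1 library. The alternatives tried were other distance limits, signal limits, gene sets and denominators. Motifs were searched in RefSeq promoters on GRCr8, matched by gene symbol or ID. Promoters of Mrpl13, Mrpl15, Mrpl19, Mrpl21, Mrpl35, Mrpl38, Mrpl43, Mrps22, Mrps24, Mrps28 and Mrps34 were not matched.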

Additional observations from a re-analysis of the deposited data

How the results depend on the processing

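Of 33 alternatives, 28 moved a value by less than its interval or spread. The share of genes with a promoter peak became 100% with any assigned peak (all genes 100%), 33.3% with peaks in the upper 50% by signal (all genes 35.3%), 16.7% in the upper 10% (19.7%) and 32.1% over the reference genes matched by gene ID (26.4%). The share of promoters with YY1 letters became 13.2% with only the bases before the start. Within 500 bp the promoter share was 50.0% (all genes 38.4%) and within 3000 bp it was 56.3% (all genes 52.3%). Distance to the nearest edge, counting by position, and leaving out chromosome 10 or the genes listed at 2 places were added after seeing the data. No paired analysis was possible because each group has 1 library. Depth is unknown, so a gene without a peak cannot be told apart from one whose peak was too weak to be listed.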

Other observations

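Mrpl1, Mrpl30 and Mrpl36 are listed at 2 places each in the annotation, as are 283 genes of the table in all. Mrpl36 had 1 promoter peak at each of its places. At the second place of Mrpl30, 1 peak of 3.03 lay 1025 bp from the start, just outside the promoter limit. The reference gene table lists 40 pseudogenes of the family, and 15 of the 48 genes have at least 1, with 9 for Mrpl30. The handling of reads that match more than 1 place is not given in the sources used here.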
